A study of Danio rerio with 16 samples.

Results

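Which effects of losing both hnf4a and hnf4b grow, fade or reverse between 34 and 48 hours post-fertilisation (hpf) in whole zebrafish embryos was measured here, gene by gene. The effect at a stage is the log2 fold change of knockout against sibling embryos, and the quantity tested is the effect at 48 hpf minus the effect at 34 hpf, called the difference below. All 16 libraries entered a single model of 4 groups, and all 24084 of 36109 gene symbols that passed the filter on low counts were tested. The groups were siblings without treatment at 34 hpf, embryos with the hnf4a,hnf4b knockout made with CRISPR/Cas9 at 34 hpf, and the same pair of genotypes at 48 hpf, with 4 libraries in each. The labels name neither the strain, the alleles, the genotypes among the siblings nor the number of embryos in a library. They give the stage as the batch as well, so a stage cannot be told apart from its batch, whereas each effect is taken within a stage.

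The nuclear receptors of the Hnf4 family act in liver, gut and yolk syncytial layer, which loads yolk lipid onto lipoproteins for the growing embryo. Over the same hours the zebrafish retina turns from dividing progenitors into ganglion cells, interneurons and the first photoreceptors. In this process Notch ligands hold cells in the progenitor state and basic helix-loop-helix (bHLH) factors start neuronal fates.

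A difference in the response to the knockout between the stages was called in 49 genes. Among them were genes of retinal neurogenesis, photoreceptors, synapses and the lysosome, and single genes of ammonia transport (rhbg) and glycogen breakdown (pygl). At a Benjamini-Hochberg adjusted p below 0.05 in edgeR's quasi-likelihood test, these are 0.203% of the genes tested, while DESeq2 called 177 and single-library omissions in edgeR gave 24 to 113. The difference was higher at 48 hpf in 21 (0.0872%) and lower in 28 (0.116%), and it exceeded 2-fold in 14 and 21 of these. An unadjusted p below 0.05 was reached by 1777 genes (7.38%), 827 higher (3.43%) and 950 lower (3.94%). The effect grew in 28 genes, faded in 12 and reversed in 9. Of the growing effects, 27 emerged, that is, were called at 48 hpf but not at 34 hpf, 22 of them lower and 5 higher in knockouts, and 1 was called at both stages. Of the fading effects, 9 were called at 34 hpf alone, 7 lower and 2 higher in knockouts, and 3 were called lower at both stages. Whether the genotypes overlap at a stage is given below as description only. The classes already rest on the calls at each stage, so overlap adds no evidence for them, and its share over all genes was not counted.

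**Figure D1:**
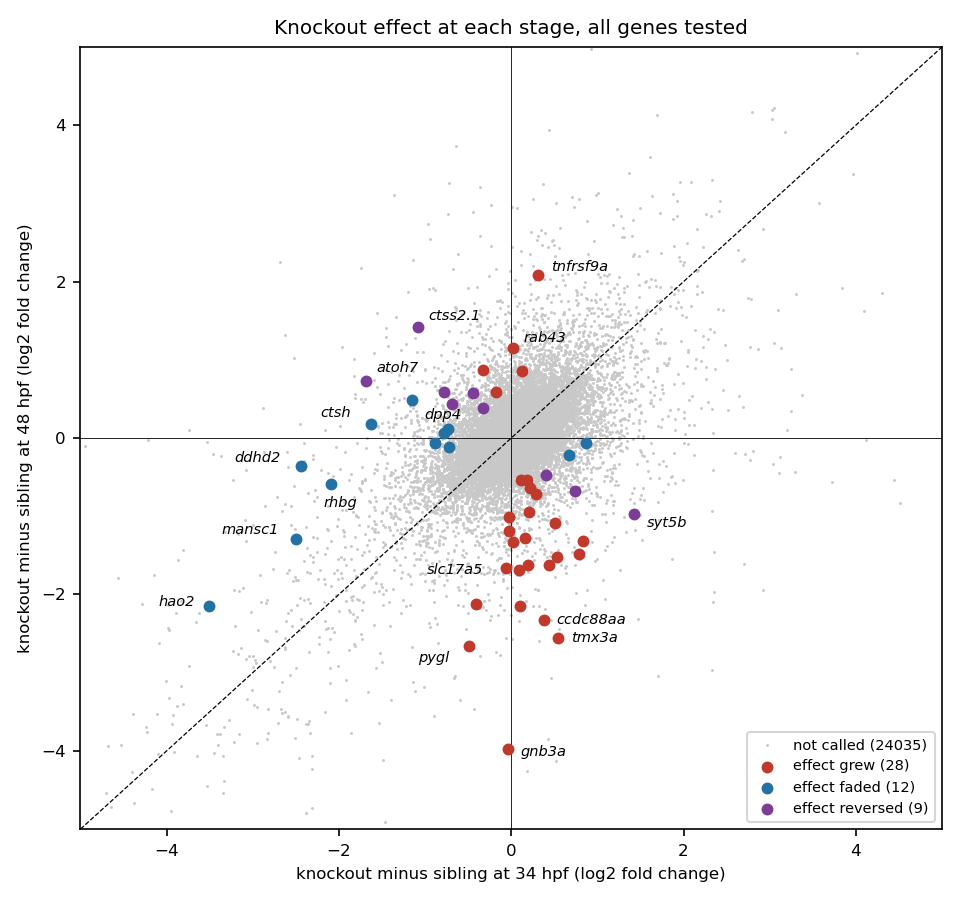
Log2 fold change of knockout against sibling embryos at 34 hpf (x axis) and at 48 hpf (y axis) for the genes tested, with the dashed line marking equal effects; 82 genes lie outside the axes. Red, blue and purple points are the 28 growing, 12 fading and 9 reversed effects, and red points mostly lie below the horizontal axis near an effect of 0 at 34 hpf.

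Set side by side, the stages shared many effects. At 34 hpf 2240 genes (9.3%) were called between the genotypes, 985 higher in knockouts (4.09%) and 1255 lower (5.21%), and at 48 hpf 2417 genes (10%), 1146 higher (4.76%) and 1271 lower (5.28%). Of these genes, 1086 were called at both, 48.5% of the first list and 44.9% of the second. The 2 comparisons share no library. Of the 1086 genes, 452 were higher and 625 lower at both stages, and 9 had opposite directions. All 9 were also called in the difference. Among genes called at 34 hpf alone, 9 of 1154 passed the test of the difference, and among those called at 48 hpf alone, 27 of 1331 did. Few calls at a single stage therefore came with a called difference, while over all genes the share called was 0.203%. The median standard error was 0.25 for the difference, against 0.18 for the effect at either stage. A missing call in the difference thus does not show that the effects were equal. The median difference was 0.04 among the 625 genes lower at both stages and 0.02 among the 452 higher at both.

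The targeted transcripts had no called difference between the stages, and neither was called between the genotypes at either stage. Effects at 34 and 48 hpf were -0.08 and -0.15 for hnf4a (adjusted p = 0.897 and 0.789). They were -0.91 and -0.83 for hnf4b (adjusted p = 0.269 and 0.329), so RNA levels alone do not show the loss of either gene. The hnf4a levels, as CPM (counts scaled to library size) in the 4 libraries, were 11.6, 14.99, 10.8 and 13.8 in siblings and 10.4, 18.4, 12.6 and 7.08 in knockouts at 34 hpf, and 12.9, 15.9, 10.8 and 9.46 and 6.04, 12.9, 13.3 and 11.8 at 48 hpf, and the genotypes overlapped at both stages. Its difference was -0.07 ± 0.38 (SE), against 0.08 ± 0.68 for hnf4b and -0.07 ± 0.63 for the paralog hnf4g, with adjusted p of 0.994, 0.997 and 0.997. Total counts ran from 34588058 to 43194625 per library. Knockout 34 hpf replicate 4 stood apart from its group, with higher levels of several lipoprotein genes than the other 3. It also stood apart over all genes tested. On the first principal component (an axis of spread among libraries, 32% of the variance) it lay at -75. Siblings of that stage lay at -50.4 to -34.6 and the other knockouts at -65.3 to -50.15. On the second (19.6%) it lay at -12.49, between the other knockouts of that stage (-42.4 to -29.17) and its siblings (43.52 to 55.22). On the fourth (6.2%) it lay at 61.97 and all other 34 hpf libraries at -23.6 to -0.237, so there it lay outside both genotypes. In the apolipoprotein gene apoa4b.1 the 4 knockout libraries of that stage stood at 0.142, 0.341, 0.0502 and 149 CPM and the siblings at 819 to 978 CPM, so that replicate 4 lay between the genotypes. Whether this library holds material of another genotype was not tested, and every 34 hpf knockout mean includes it. Without this library 113 genes were called, 62 higher and 51 lower, and the 49 calls were all among them. Whether the replicates are separate clutches is not in the labels, and p-values therefore cover only the spread among these libraries.

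The genes atoh7, foxn4, fzd5 and atoh1b, known from progenitors and fate choice, were called with a higher effect at 48 hpf. In the first 3 the effect turned round. Genes of this kind did not all go higher. Other called factor genes had lower differences, among them rx3 (-1.44), bhlhe23 (-2.26), pax10 (-2.06), prox1a (-0.72) and rorab (-1.005), described below. The gene atoh7, a bHLH factor that retinal ganglion cells need, stood at 11.8, 19.2, 14.8 and 16.6 CPM in siblings and 2.94, 5.62, 4.31 and 6.56 CPM in knockouts at 34 hpf. At 48 hpf its levels were 9.23, 9.53, 10.96 and 10.4 CPM and 13.1, 16.97, 19.8 and 16.9 CPM. Knockouts were thus lower in all libraries at the first stage and higher in all at the second, with no overlap. The effect went from -1.68 ± 0.21 to 0.73 ± 0.20, a difference of 2.42 ± 0.29 (adjusted p = 0.000918), and the call held in all alternatives. In whole embryos fewer cells of a type and less RNA per cell cannot be told apart.

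The gene foxn4 encodes a forkhead factor that in mice directs retinal progenitors to amacrine and horizontal cells. It stood at 34.4, 45.9, 40.5 and 49.1 CPM in siblings and 31.4, 31.9, 33 and 28.7 CPM in knockouts at 34 hpf, and at 36.9, 34.3, 33.5 and 38.8 CPM and 53.7, 51.3, 54.6 and 54.99 CPM at 48 hpf. It too reversed without overlap at either stage, with effects of -0.44 and 0.58 and a difference of 1.02 ± 0.14, adjusted p = 0.00295. The Wnt receptor gene fzd5, known from the eye field, had effects of -0.32 and 0.39 (difference 0.71 ± 0.13, adjusted p = 0.0274). Siblings fell from a range of 49.9 to 62.5 CPM at 34 hpf to one of 30.04 to 34.6 CPM at 48 hpf, while knockouts lay at 40.9 to 49.9 CPM and then 39.5 to 46.8 CPM. The genotypes touched at 34 hpf and were apart at 48 hpf. The fzd5 call was lost in 10 of 16 omissions of a library (highest adjusted p = 0.0920) and with the replicate number as a block (adjusted p = 0.0723). The gene atoh1b, a bHLH factor of the hindbrain rim and the inner ear, emerged at 48 hpf. Its levels were 28.4, 24.9, 29.04 and 30.3 CPM and 32.4, 29.1, 31.6 and 29.5 CPM at 34 hpf and 9.38, 10.22, 10.3 and 10.99 CPM and 17.8, 17.4, 18.5 and 20.1 CPM at 48 hpf, siblings before knockouts. The genotypes overlapped at 34 hpf only, and the difference was 0.73 ± 0.12, adjusted p = 0.0155.

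In the list of Notch targets and bHLH neurogenesis 40 members were tested. Of these, 2 were called higher, atoh7 and atoh1b, and 0 lower, against 0.0872% and 0.116% of all genes. An unadjusted p below 0.05 was reached by 14 members in the higher direction and 1 in the lower, against 3.43% and 3.94% of all genes. Of 40 differences 34 lay above 0, against 50.1% of all genes. The lists were chosen with earlier results of these data known, so these shares only describe the list. The list's median difference was 0.26, against 0.00 over all genes. Its summed level was 2809 to 2911 CPM in siblings and 2833 to 3255 CPM in knockouts at 34 hpf, where the ranges overlapped. At 48 hpf it was 1818 to 2055 CPM in siblings and 2338 to 2791 CPM in knockouts, with no overlap. The Notch ligand genes dla and dlc missed the threshold, at 0.54 ± 0.11, adjusted p = 0.0578 and 0.63 ± 0.13, adjusted p = 0.0578, as did the neurogenic zinc finger gene insm1a (0.77 ± 0.17, adjusted p = 0.0793). For dlc the 48 hpf levels were 43.8, 42.05, 43.97 and 45.3 CPM in siblings and 73.9, 77.3, 88.1 and 73.4 CPM in knockouts, which do not overlap. Without knockout 34 hpf replicate 4 dla and dlc passed the threshold, at 0.49 (adjusted p = 0.0329) and 0.54 (adjusted p = 0.0225), and without knockout 48 hpf replicate 1 insm1a did, at 0.83 (adjusted p = 0.0457). DESeq2 called all 3.

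A further set of genes, known from maturing retinal cells, emerged as lower in knockouts at 48 hpf. The libraries are of whole embryos, so the tissue in which these and the preceding genes changed cannot be told. The gene gnb3a, for a G protein beta subunit, stood at 0.328, 0.272, 0.292 and 0.295 CPM in siblings and 0.142, 0.625, 0.201 and 0.219 CPM in knockouts at 34 hpf, all under 1 CPM. At 48 hpf siblings had 30.2, 42.1, 27.5 and 26.1 CPM and knockouts 2.6, 2.804, 0.943 and 1.64 CPM. All 4 siblings lay far above the knockouts, and the difference of -3.94 ± 0.58 (adjusted p = 0.00545) was the lowest among the called genes, although limma-voom did not call it. The bHLH gene bhlhe23, known in mice from retinal bipolar cells, had 0.684 to 1.03 CPM and 0.853 to 1.02 CPM at 34 hpf and 9.82, 12.5, 10.9 and 7.84 CPM and 2.69, 3.07, 1.98 and 1.497 CPM at 48 hpf. The genotypes overlapped at the first stage and were clearly apart at the second, with a difference of -2.26 ± 0.32 (adjusted p = 0.00445), a call kept in all alternatives.

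The photoreceptor calcium sensor gene rcvrn2 had 3.47, 5.21, 3.21 and 4.86 CPM in siblings and 6.78, 4.83, 3.56 and 4.07 CPM in knockouts at 34 hpf, and 13.7, 18.4, 16.2 and 13.4 CPM and 4.92, 6.85, 3.68 and 4.63 CPM at 48 hpf. Siblings rose and knockouts stayed near their earlier range, so that the overlap of the first stage was gone, and the difference was -1.82 ± 0.32, adjusted p = 0.0217. The very long chain fatty acid elongase gene elovl4b, expressed in zebrafish photoreceptors, had 3.03 to 3.78 CPM and 1.85 to 3.096 CPM at 34 hpf and 13.4 to 18.9 CPM and 2.97 to 4.46 CPM at 48 hpf. Its genotypes overlapped only at 34 hpf, with a difference of -1.71 ± 0.25, adjusted p = 0.00536. The pax6 relative pax10 (-2.06 ± 0.37, adjusted p = 0.0261) and the syntaxin gene STX3 (-1.78 ± 0.33, adjusted p = 0.0283), whose product serves ribbon synapses in mammals, followed the same course. At 48 hpf pax10 had 20.1 to 24.1 CPM in siblings and 5.32 to 9.44 CPM in knockouts, and STX3 had 21.6 to 23.99 CPM and 5.25 to 8.61 CPM. Of these calls, those of rcvrn2, pax10 and STX3 were lost in 6 of 16, 7 of 16 and 9 of 16 omissions of a library (highest adjusted p = 0.0665, 0.0728 and 0.0846). The list of fatty acid synthesis, desaturation and elongation held 1 call among 28, elovl4b, against 0.203% of all genes. Its median difference was 0.13. Above 0 lay 18 of 28, against 50.1% of all genes.

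Lower levels marked the arrestin gene sagb, the retinaldehyde carrier gene rlbp1a and the eye field homeobox gene rx3. For sagb the 34 hpf ranges were 0.221 to 0.547 CPM in siblings and 0.426 to 0.806 CPM in knockouts, and the 48 hpf ranges 2.48 to 5.11 CPM and 1.24 to 1.61 CPM, with a difference of -2.27 ± 0.43, adjusted p = 0.0378. For rlbp1a the ranges at 48 hpf were 8.08 to 9.56 CPM and 2.95 to 4.48 CPM (-1.17 ± 0.23, adjusted p = 0.0456), and for rx3 they were 3.85 to 6.05 CPM and 1.76 to 2.73 CPM (-1.44 ± 0.28, adjusted p = 0.0457). All 3 overlapped between genotypes at 34 hpf and not at 48 hpf. These calls lay near the threshold, and that of sagb was lost in 11 of 16 omissions, that of rlbp1a in 11 of 16 and that of rx3 in 13 of 16 (highest adjusted p = 0.118, 0.125 and 0.128). With the replicate block rlbp1a (adjusted p = 0.0902) and rx3 (adjusted p = 0.0723) lost theirs.

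In the retina and photoreceptor list 54 members were tested. In the difference 4 were called lower, rcvrn2, sagb, rlbp1a and rx3, and 1 higher, atoh7, against 0.116% and 0.0872% of all genes. An unadjusted p below 0.05 was reached by 15 in the lower direction and 3 in the higher, against 3.94% and 3.43% of all genes. Below 0 lay 44, against 49.9% of all genes. As this list too was chosen with earlier results of these data known, these shares only describe it. The list's median difference was -0.39. Its members rose between the stages by a median of 0.65 on the log2 scale in siblings and 0.11 in knockouts. The summed level was 1331 to 1590 CPM in siblings and 1252 to 1562 CPM in knockouts at 34 hpf, and 1920 to 2025 CPM and 1439 to 1666 CPM at 48 hpf, so the ranges parted only at the second stage. Not every photoreceptor gene showed a tested difference. The photoreceptor factor gene crx had effects of -1.13 and -1.47 (difference -0.34 ± 0.38, adjusted p = 0.954), the cone channel gene cnga3a had -0.02 and -1.73 (-1.71 ± 0.42, adjusted p = 0.145), and the bipolar cell factor gene vsx1 had -0.38 and -1.37 (-0.99 ± 0.25, adjusted p = 0.156). DESeq2 called cnga3a and vsx1, and without knockout 48 hpf replicate 2 the vsx1 value was -1.204 (adjusted p = 0.0170), past the threshold. In the lens crystallin list 0 of 56 were called, with a median of 0.06.

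**Figure D2:**
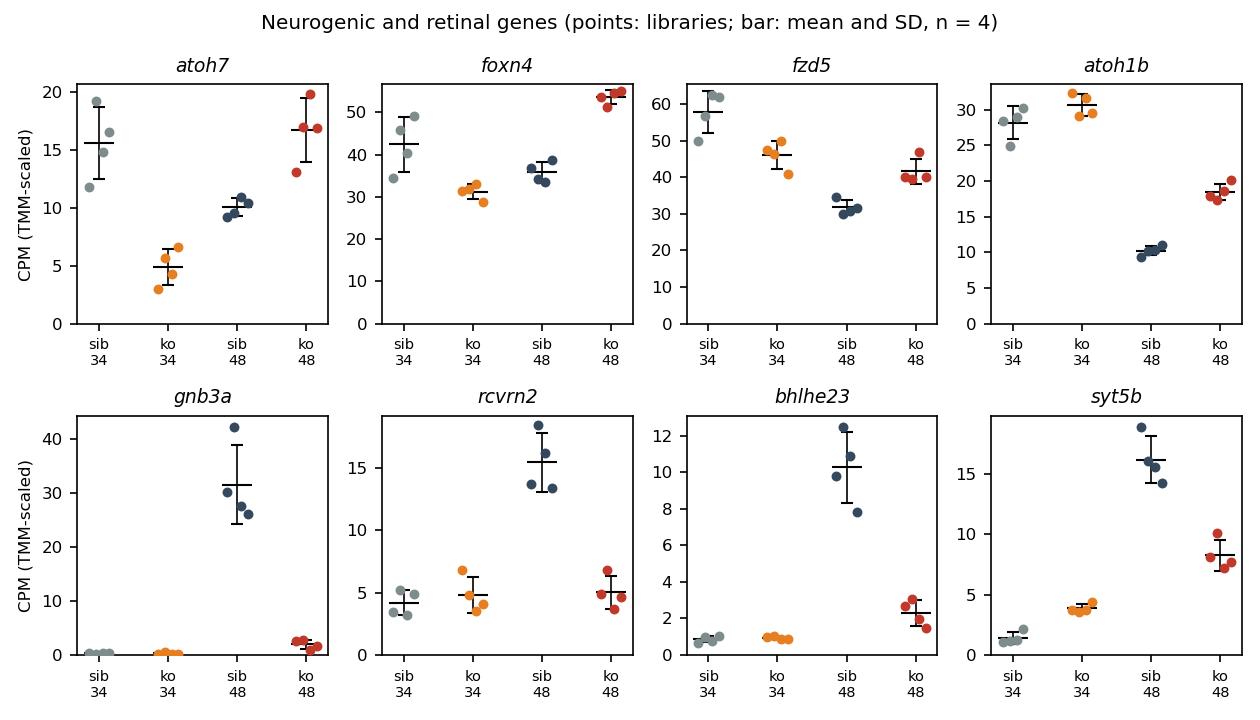
Level in CPM (y axis, from 0) of 8 neurogenic and retinal genes in each library by group, with the group mean and SD (n = 4). In the upper row the knockouts (orange at 34 hpf, red at 48 hpf) lie above the siblings at 48 hpf, and in the lower row they lie below them.

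The called genes known from synapses, syt5b, stxbp1b and scamp5b, also had lower effects at 48 hpf than at 34 hpf. The synaptotagmin gene syt5b, whose family senses calcium at synaptic vesicles, had 1.09, 1.195, 1.25 and 2.16 CPM in siblings and 3.699, 3.58, 3.76 and 4.38 CPM in knockouts at 34 hpf. At 48 hpf it had 18.9, 16.1, 15.6 and 14.2 CPM and 8.101, 10.1, 7.18 and 7.698 CPM. Knockouts were higher in every library at 34 hpf and lower in every library at 48 hpf, a reversal from 1.43 ± 0.19 to -0.97 ± 0.18 (difference -2.40 ± 0.26, adjusted p = 0.000685) whose call held in all alternatives. The vesicle fusion gene stxbp1b (-2.06 ± 0.36, adjusted p = 0.0226) and the secretory carrier gene scamp5b (-2.15 ± 0.37, adjusted p = 0.0206) emerged as lower. For stxbp1b the 48 hpf levels were 34.5, 33.1, 26.6 and 22.4 CPM in siblings and 11.3, 12.2, 8.03 and 6.25 CPM in knockouts, and for scamp5b 6.66, 6.05, 4.45 and 5.55 CPM and 2.14, 2.25, 1.93 and 2.76 CPM. Neither overlapped at 48 hpf, while at 34 hpf scamp5b was slightly higher in all knockouts (0.593 to 0.903 CPM) than in siblings (0.197 to 0.547 CPM). Their calls were lost in 6 of 16 and 4 of 16 omissions (highest adjusted p = 0.0665 for both) and in limma-voom.

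Further genes known from neurons differed by less. The semaphorin gene sema6d, for an axon guidance signal, reversed from 0.40 to -0.48 (-0.88 ± 0.16, adjusted p = 0.0274), and galnt13, for an enzyme that starts O-linked glycans, reversed from 0.74 to -0.68 (-1.42 ± 0.25, adjusted p = 0.0206). Both were higher in all knockouts at 34 hpf and lower in all at 48 hpf. The calretinin gene calb2b faded from 0.68 to -0.22 (-0.90 ± 0.17, adjusted p = 0.0315), with siblings at 12.3 to 13.8 CPM and knockouts at 16.6 to 25.3 CPM at 34 hpf. At 48 hpf siblings had risen to 21.6 to 28.3 CPM and overlapped the knockouts at 20.3 to 23.9 CPM. Effects that emerged as lower were those of the RNA-binding protein genes rbpms2a (-0.86 ± 0.15, adjusted p = 0.0206) and pcbp3 (-0.98 ± 0.17, adjusted p = 0.0188), of purg (-1.35 ± 0.26, adjusted p = 0.0426), of the nuclear receptor gene rorab (-1.005 ± 0.16, adjusted p = 0.0102) and of prox1a (-0.72 ± 0.13, adjusted p = 0.0228). The last is a homeobox factor of the retina, the lens, the liver and the lymphatics. For rorab all 4 knockouts were above the siblings at 34 hpf, although the effect was not called there, and all 4 were below them at 48 hpf, at 34.5, 32.1, 24.4 and 28.1 CPM against 43.8, 55.2, 55.8 and 41.2 CPM.

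Of these, rorab kept its call in every omission. The calls of sema6d, galnt13, calb2b, rbpms2a, pcbp3, purg and prox1a were lost in 10 of 16, 4 of 16, 11 of 16, 4 of 16, 3 of 16, 11 of 16 and 5 of 16 omissions, in this order (highest adjusted p = 0.0763, 0.0665, 0.102, 0.0665, 0.0622, 0.125 and 0.0721). With the replicate block sema6d (adjusted p = 0.0902), galnt13 (adjusted p = 0.0723) and purg (adjusted p = 0.0698) were not called. In the list of neurons and synapse, 1 of 44 was called, stxbp1b, against 0.203% of all genes. An unadjusted p below 0.05 was reached by 12 in the lower direction and 0 in the higher, against 3.94% and 3.43% of all genes. The list's median difference was -0.23, and 36 of 44 lay below 0, against 49.9% of all genes. Its summed level was 5313 to 5901 CPM in siblings and 4357 to 5278 CPM in knockouts at 48 hpf, and 3162 to 3413 CPM and 2844 to 3566 CPM at 34 hpf. Such a share was not particular to neurons. Of 99 nuclear respiratory chain genes 88 lay below 0 and 11 above, with a median of -0.18. None was called, and 0 reached an unadjusted p below 0.05.

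The liver-type glycogen phosphorylase gene pygl, which releases glucose from glycogen, had the smallest adjusted p of the genes tested. It stood at 8.18, 10.9, 8.46 and 6.902 CPM in siblings and 5.31, 6.33, 6.54 and 6.23 CPM in knockouts at 34 hpf, and at 35.4, 30.4, 33.6 and 41.3 CPM and 4.503, 5.51, 5.88 and 6.46 CPM at 48 hpf. Siblings rose several-fold between the stages and knockouts did not leave their earlier range by more than 1 CPM, without overlap of the genotypes at either stage. It was the 1 effect that was called at both stages and strengthened, from -0.50 ± 0.15 to -2.65 ± 0.15 (difference -2.16 ± 0.21, adjusted p = 0.000208). The lysosomal sialic acid exporter gene slc17a5 had 25.2, 24.9, 29.04 and 30.6 CPM and 21.9, 26.01, 31.99 and 25.2 CPM at 34 hpf and 57.3, 71.3, 71.99 and 52.3 CPM and 18.9, 17.9, 21 and 21.9 CPM at 48 hpf, siblings first. Its genotypes overlapped at 34 hpf and were apart at 48 hpf, with a difference of -1.60 ± 0.18, adjusted p = 0.000767. Both calls held in all alternatives. The list of gluconeogenesis, glycogen and amino acid catabolism held 1 call among 55, pygl, against 0.203% of all genes. Its median difference was 0.09. Above 0 lay 34 of 55, against 50.1% of all genes.

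The girdin family gene ccdc88aa emerged as lower, at 11.9, 17.6, 14.8 and 13.1 CPM in siblings and 3.74, 3.09, 2.63 and 2.01 CPM in knockouts at 48 hpf, after 0.301 to 0.639 CPM and 0.427 to 0.795 CPM at 34 hpf. Its difference of -2.70 ± 0.36 (adjusted p = 0.00286) was called in all alternatives. The disulfide isomerase gene tmx3a (-3.11 ± 0.48, adjusted p = 0.00768), at 3.42 to 6.77 CPM and 0.449 to 1.15 CPM, the matrix gene emilin3a (-1.59 ± 0.23, adjusted p = 0.00424), at 24.2 to 33.96 CPM and 11.8 to 18.4 CPM, and the AP-2 factor gene tfap2c (-0.65 ± 0.12, adjusted p = 0.0228), at 158 to 169 CPM and 101 to 120.2 CPM, emerged the same way. So did the unnamed locus si:ch73-233f7.1 (-1.15 ± 0.23, adjusted p = 0.0457). In all 5 the genotypes overlapped at 34 hpf and not at 48 hpf. The calls of tfap2c and si:ch73-233f7.1 were lost in 8 of 16 and 12 of 16 omissions (highest adjusted p = 0.0665 and 0.125), and limma-voom did not call tmx3a.

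Besides atoh1b, 4 effects emerged as higher in knockouts at 48 hpf. The Golgi GTPase gene rab43 had 12.7, 14.9, 11.9 and 13.6 CPM in siblings and 12.5, 14.8, 13.7 and 12.9 CPM in knockouts at 34 hpf, and 13.1, 13.2, 14.6 and 13.2 CPM and 37.6, 29.2, 29.2 and 24.2 CPM at 48 hpf. Siblings kept their level, all knockouts lay above them at the later stage, and the difference was 1.13 ± 0.17, adjusted p = 0.00545. The gene tnfrsf9a, of the tumour necrosis factor receptor family, had 2.66 to 3.199 CPM and 2.93 to 4.23 CPM at 34 hpf, and 3.91, 3.23, 3.102 and 3.99 CPM and 15.3, 14.6, 10.1 and 20.4 CPM at 48 hpf. Its difference of 1.76 ± 0.27 (adjusted p = 0.00768) was not called by limma-voom. The gene dpagt1, for the enzyme that begins N-linked glycans, reached 24.97 to 29.8 CPM in knockouts against 17.4 to 20.1 CPM in siblings (0.76 ± 0.14, adjusted p = 0.0261), and pbxip1a reached 49.8 to 91.2 CPM against 37.9 to 46.7 CPM (1.197 ± 0.22, adjusted p = 0.0283). Neither overlapped at 48 hpf, and the calls were lost in 9 of 16 and 12 of 16 omissions (highest adjusted p = 0.0868 and 0.0900) and with the replicate block (adjusted p = 0.0684 and 0.0587).

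Of the 12 fading effects 10 were lower in knockouts at 34 hpf, among them those of genes for ammonia transport, peroxisomal oxidation and protein cleavage. The ammonia channel gene rhbg had 27.6, 20.9, 23.6 and 23.9 CPM in siblings and 5.38, 5.62, 5.87 and 5.69 CPM in knockouts at 34 hpf, and 65.1, 91.3, 76.1 and 82.5 CPM and 42.1, 62.6, 56.1 and 48.7 CPM at 48 hpf. Both genotypes rose, by 1.72 on the log2 scale in siblings and 3.21 in knockouts, without overlapping at either stage. On that scale the effect weakened from -2.09 ± 0.13 to -0.59 ± 0.12 (difference 1.499 ± 0.18, adjusted p = 0.000918). In CPM the gap did not narrow, with means of 23.98 and 5.64 at 34 hpf and 78.7 and 52.4 at 48 hpf, siblings first. The peroxisomal hydroxyacid oxidase gene hao2 weakened from -3.51 ± 0.16 to -2.15 ± 0.15 (difference 1.36 ± 0.21, adjusted p = 0.00768), with siblings at 19.8 to 28.3 CPM and 22.3 to 25.2 CPM and knockouts at 1.61, 2.47, 2.01 and 2.297 CPM and then 4.88, 5.99, 4.33 and 6.15 CPM. The gene mansc1 weakened from -2.49 ± 0.12 to -1.29 ± 0.12 (difference 1.21 ± 0.17, adjusted p = 0.00366), with siblings at 23.03 to 30.1 CPM and 28.4 to 32.6 CPM and knockouts at 4.6, 5.62, 4.16 and 4.51 CPM and then 12.5, 14.9, 11.4 and 11.2 CPM. In both, sibling levels overlapped between the stages and every knockout library of 48 hpf was above every one of 34 hpf. All 3 calls held in every omission.

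In the lipid hydrolase gene ddhd2 the sibling level changed instead. It had 26.6, 24, 25.9 and 29.9 CPM in siblings and 3.13, 6.02, 4.41 and 6.02 CPM in knockouts at 34 hpf, and 5.42, 6.797, 8.12 and 7.49 CPM and 4.78, 4.91, 6.06 and 5.896 CPM at 48 hpf. Siblings fell to near the level of the knockouts, and the genotypes then overlapped, with a difference of 2.08 ± 0.26 (adjusted p = 0.00116) that all alternatives called. The cadherin gene cdh17, of the gut and the pronephros, had 93.8, 96.03, 113 and 95.9 CPM and 60.02, 52, 55.01 and 49.5 CPM at 34 hpf and 43.4, 47.5, 46.99 and 46.3 CPM and 46.4, 40.4, 42.7 and 46.9 CPM at 48 hpf. Here too siblings came down to the knockouts, and the difference was 0.82 ± 0.12, adjusted p = 0.00480. The pronephros list as a whole held 1 call among 25, cdh17, against 0.203% of all genes, with a median difference of 0.06. The intestinal list held the same 1 among 27, against the same share of all genes, with a median of 0.21.

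In 3 further hydrolase genes siblings fell likewise. The cathepsin gene ctsh had 49.5, 41.2, 78.6 and 71.2 CPM in siblings and 11.5, 18.7, 16.5 and 30.8 CPM in knockouts at 34 hpf, and 8.32 to 11.02 CPM and 9.33 to 13.3 CPM at 48 hpf (1.82 ± 0.35, adjusted p = 0.0456). The dipeptidyl peptidase gene dpp4 (1.64 ± 0.29, adjusted p = 0.0217) had 9.88 to 12.7 CPM and 4.03 to 7.13 CPM and then 3.29 to 4.89 CPM and 3.76 to 6.84 CPM. The phospholipase B domain gene plbd1 (0.85 ± 0.15, adjusted p = 0.0261) had 42.4 to 52.3 CPM and 26.4 to 35.3 CPM and then 18.9 to 22.1 CPM and 18.8 to 24.4 CPM. In all 3 the siblings were higher in every library at 34 hpf, and the genotypes overlapped at 48 hpf. The gene kdelr2a, for a receptor that returns proteins to the endoplasmic reticulum, went from -0.72 to -0.11 (0.61 ± 0.10, adjusted p = 0.0105), and the LIM homeobox gene LHX3 from -0.78 to 0.07 (0.85 ± 0.17, adjusted p = 0.0484). At 48 hpf the genotypes overlapped in LHX3 but not in kdelr2a. For kdelr2a all knockouts (129.3 to 136.5 CPM) still lay below all siblings (142.5 to 150.5 CPM), although the effect was not called there.

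The calls of ctsh, dpp4, plbd1 and LHX3 were lost in 12 of 16, 5 of 16, 10 of 16 and 14 of 16 omissions (highest adjusted p = 0.124, 0.0673, 0.0864 and 0.145). With the replicate block kdelr2a (adjusted p = 0.0538), dpp4 (adjusted p = 0.0680), plbd1 (adjusted p = 0.0723) and LHX3 (adjusted p = 0.116) were not called, and LHX3 was also lost with either other scaling. The retinol dehydrogenase gene rdh14a was the other gene besides calb2b whose rise faded, from 0.87 to -0.07 (-0.94 ± 0.18, adjusted p = 0.0423). At 34 hpf it had 2.96 to 3.801 CPM in siblings and 5.54 to 6.37 CPM in knockouts, and the ranges at 48 hpf, 5.39 to 6.49 CPM and 5.101 to 6.399 CPM, overlapped. Its call was lost in 11 of 16 omissions (highest adjusted p = 0.117) and with the replicate block (adjusted p = 0.122).

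A further 3 effects reversed from lower to higher, those of ctss2.1, tmem41ab and CR848047.1. The cathepsin S gene ctss2.1 had 103, 82.5, 98.9 and 62.7 CPM in siblings and 43.5, 41.9, 13.4 and 64.97 CPM in knockouts at 34 hpf, and 4.69, 3.43, 3.26 and 4.39 CPM and 9.796, 9.75, 14.8 and 7.93 CPM at 48 hpf. Both genotypes fell, the siblings further, and the genotypes overlapped at 34 hpf through a single knockout library, replicate 4. The difference was 2.51 ± 0.47, adjusted p = 0.0321, a call lost in 10 of 16 omissions (highest adjusted p = 0.104) and with the replicate block (adjusted p = 0.0719), and reads may be shared with the similarly named ctss2.2. The membrane protein gene tmem41ab went from -0.78 ± 0.14 to 0.59 ± 0.13 (difference 1.37 ± 0.19, adjusted p = 0.00383), with siblings at 5.42 to 5.92 CPM and 5.24 to 6.08 CPM and knockouts at 3.699, 2.92, 2.96 and 3.56 CPM and then 7.15, 7.81, 8.12 and 10.1 CPM. The locus CR848047.1 went from -0.69 to 0.44 (1.13 ± 0.17, adjusted p = 0.00768). Neither of the last 2 overlapped at any stage, and both kept their calls in every omission. The lysosome list held 2 calls among 43, ctsh and ctss2.1, against 0.203% of all genes, with a median difference of 0.02. The lysosomal exporter gene slc17a5, which is not on this list, was called in the other direction (-1.60).

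**Figure D3:**
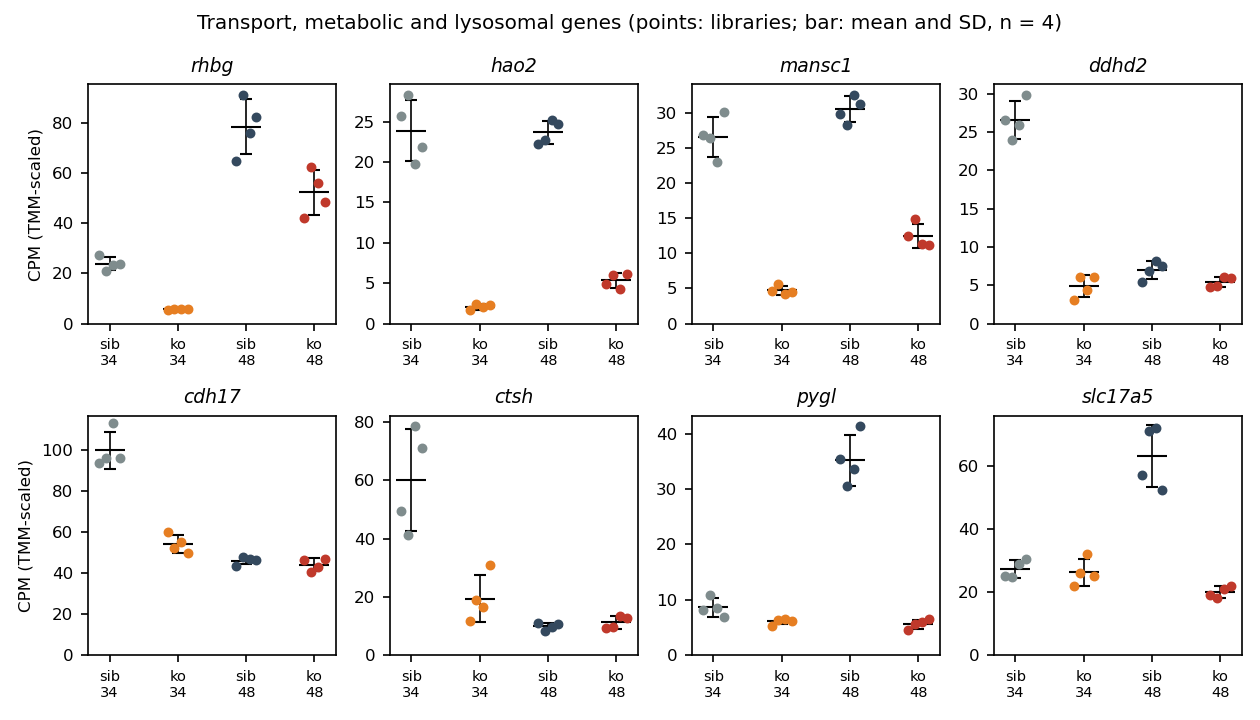
Level in CPM (y axis, from 0) of 8 genes of transport, metabolism and the lysosome in each library by group, with the group mean and SD (n = 4). In the weakened effects of rhbg, hao2 and mansc1 the knockouts of 48 hpf (red) lie above those of 34 hpf (orange), and in ddhd2, cdh17 and ctsh the siblings of 48 hpf (dark blue) lie near the knockouts.

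The difference can also be laid out as the change between the stages in each genotype. Since both layouts use the same libraries, the values are only set side by side. Over all genes 8171 (33.9%) were called between the stages in siblings, 4400 rising (18.3%) and 3771 falling (15.7%). In knockouts 6666 (27.7%) were called, 3745 rising (15.5%) and 2921 falling (12.1%). The difference is the knockout change minus the sibling change, so a lower difference by itself favours a rise in siblings. All 28 genes with a lower difference rose in siblings from 34 to 48 hpf, and 18 of them were also called as rising in knockouts, while 1, slc17a5, fell there. For gnb3a the rise was 6.72 on the log2 scale in siblings and 2.77 in knockouts, for syt5b 3.50 and 1.1, and for rcvrn2 1.88 and 0.06. For pygl the values were 2.03 and -0.13. Of the 21 genes with a higher difference, 11 fell and 3 rose in siblings, and 13 rose and 5 fell in knockouts. The gene atoh7 changed by -0.63 in siblings and 1.78 in knockouts, foxn4 by -0.24 and 0.78, and atoh1b by -1.46 and -0.73. On the first principal component the siblings of 48 hpf lay at 55.8 to 75.6 and the knockouts at 17.99 to 49.18. All libraries of 34 hpf lay at -75 to -34.62, so the later knockouts lay nearer to them than the later siblings did. Whether knockouts lagged as a whole between the stages, apart from changes in single genes, was not tested.

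**Figure D4:**
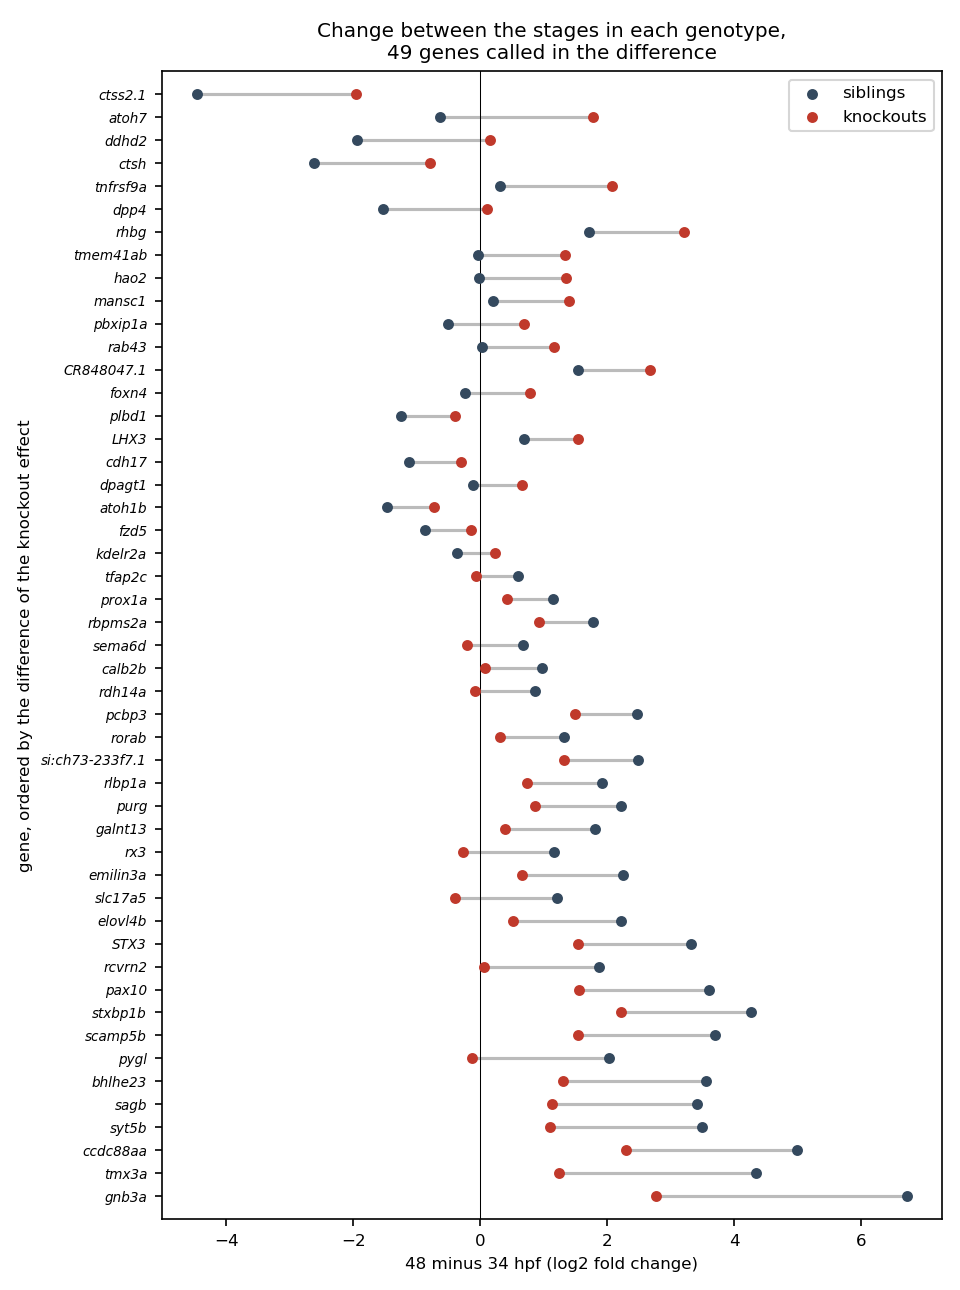
Log2 fold change of 48 against 34 hpf (x axis) in siblings (dark blue) and in knockouts (red) for the 49 called genes, ordered by the difference, whose size is the grey line between the points. In the lower part of the plot the 28 sibling values all lie to the right of 0 and of the knockout values.

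Lipoprotein and plasma protein genes had no called difference between the stages, although many were called at each. Of 21 apolipoproteins tested 13 were called lower at 34 hpf and 14 at 48 hpf, against 5.21% and 5.28% of all genes. In the difference 0 were called, 4 reached an unadjusted p below 0.05, all lower (3.94% of all genes), and the median difference was -0.68. Their summed level was 17180 to 21630 CPM in siblings and 1834 to 7429 CPM in knockouts at 34 hpf, and 14450 to 16710 CPM and 1119 to 2794 CPM at 48 hpf. The fitted values of apoa4b.1 and apoc2, the lowest of the list, rested on knockout 34 hpf replicate 4. For apoa4b.1 the knockout levels at 48 hpf were 0.139, 0.527, 0.179 and 0.281 CPM, against 561 to 786 CPM in siblings. Its difference was -6.63 ± 2.13, adjusted p = 0.338, and without that library it was 1.11 (adjusted p = 0.510), with the opposite sign.

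For the lipase cofactor gene apoc2 the knockout levels were 0.617, 0.994, 0.401 and 50.6 CPM at 34 hpf and 0.279, 1.08, 0.943 and 0.187 CPM at 48 hpf, and the difference of -4.33 ± 1.498 (adjusted p = 0.408) was -0.03 without that library. For apoa1b, of high-density lipoprotein, the knockout levels were 21.4, 73.8, 17.1 and 296 CPM and 10.4, 23.1, 23.6 and 8.94 CPM, and the difference of -2.76 ± 0.89 (adjusted p = 0.342) was -1.31 without it. The particle gene apobb.1 had a difference of -0.98 ± 0.49, adjusted p = 0.714, or -0.53 without it, and the apolipoprotein E genes apoea and apoeb had -1.49 ± 1.01 and 0.51 ± 0.36 (adjusted p = 0.862 and 0.870). None of 29 genes of lipoprotein assembly was called, with a median of 0.01. The transfer protein gene mttp, which loads lipid onto the particles, had knockout levels of 4.6, 4.94, 4.99 and 10.7 CPM and 5.06, 4.82, 4.98 and 5.57 CPM and a difference of 0.80 ± 0.29, adjusted p = 0.448. Without knockout 34 hpf replicate 4 the value was 1.18 (adjusted p = 0.00227), past the threshold.

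In coagulation 0 of 21 genes, in complement 0 of 30 and in the hepatocyte list 0 of 35 were called, with medians of 0.37, 0.04 and -0.35. The protease inhibitor gene a2ml was nearest among those named, with effects of -2.46 and -4.09 (difference -1.62 ± 0.36, adjusted p = 0.0863). The transferrin gene tfa had effects of -1.14 and -3.12 (difference -1.98 ± 0.58, adjusted p = 0.287), and without knockout 48 hpf replicate 2 the value was -2.63 (adjusted p = 0.0256), past the threshold. For a2ml it was -1.86 (adjusted p = 0.0181) without knockout 34 hpf replicate 1, and DESeq2 called this gene too. No other omission called a2ml. Neither did limma-voom, the robust prior or the replicate block (adjusted p = 0.0957, 0.152 and 0.0641). The fibrinogen gene fga (-0.95 ± 0.45, adjusted p = 0.672) and the complement gene c8b (1.16 ± 0.47, adjusted p = 0.579) were not called.

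Sterol genes also had no called difference. Of 30 members of the cholesterol synthesis list 14 were called higher in knockouts at 34 hpf and 21 at 48 hpf, against 4.09% and 4.76% of all genes. In the difference 0 were called, and 9 reached an unadjusted p below 0.05, all higher, against 3.43% of all genes. Above 0 lay 28, against 50.1% of all genes, and the median was 0.43. The summed level was 655 to 691 CPM in siblings and 839 to 990 CPM in knockouts at 34 hpf, and 565 to 642 CPM and 775 to 1447 CPM at 48 hpf. The wide knockout range at 48 hpf appears in the rate-limiting enzyme gene hmgcra, whose levels there were 87.8, 15.5, 24.8 and 33.5 CPM, with replicate 1 far above the other 3. Its difference was 1.46 ± 0.54, adjusted p = 0.477, and 0.72 (adjusted p = 0.609) without that replicate. The corresponding values for the demethylase gene cyp51 were 0.92 ± 0.32, adjusted p = 0.410, and 0.57 (adjusted p = 0.546). The desaturase gene scd (1.37 ± 0.41, adjusted p = 0.292), the regulator gene srebf1 (0.45 ± 0.18, adjusted p = 0.539) and the elongase gene elovl5 (0.46 ± 0.39, adjusted p = 0.920) were not called either.

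**Figure D5:**
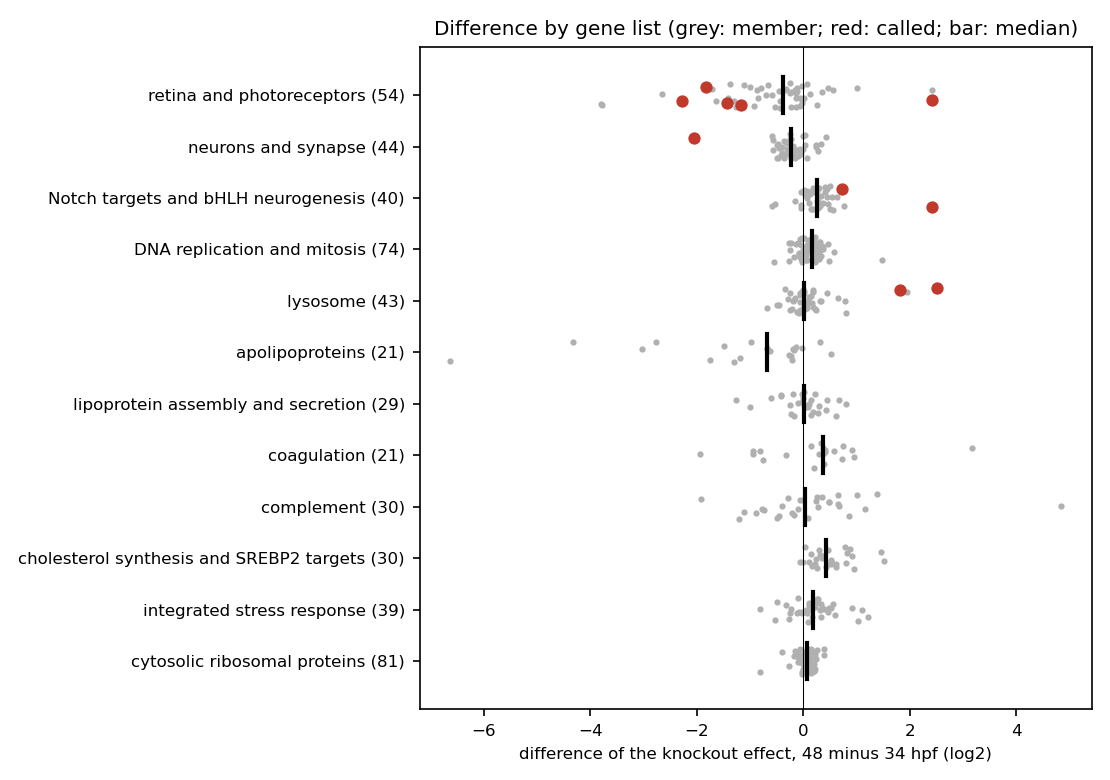
Difference of the knockout effect, 48 minus 34 hpf, on the log2 scale (x axis) for the members tested of 12 gene lists, with the number of members in brackets. Red points are called genes and black bars medians. The calls lie in the upper 3 lists and the lysosome list, and the apolipoproteins have the widest spread toward lower values.

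Further lists held no call. None of 39 genes of the integrated stress response, 35 of the unfolded protein response, 25 of the p53 response, 28 of the insulin-like growth factor axis, 81 cytosolic ribosomal proteins, 12 mitochondrially encoded genes or 74 genes of DNA replication was called. Their medians were 0.18, 0.05, 0.09, 0.12, 0.07, 0.16 and 0.17 in this order. Within the stress list, the asparagine synthetase gene asns had effects of -0.85 and 0.06 (difference 0.90 ± 0.19, adjusted p = 0.0787) and the stress factor gene ddit3 1.34 and 1.94 (0.60 ± 0.16, adjusted p = 0.214). DESeq2 called asns, as did edgeR without knockout 48 hpf replicate 2 (1.001, adjusted p = 0.0305). An unadjusted p below 0.05 was reached by 9 of the 39 stress genes, 6 higher and 3 lower, and by 8 of the 74 replication genes, all higher. Over all genes 3.43% reached it in the higher and 3.94% in the lower direction. In the ribosomal list 61 of 81 differences and in the replication list 55 of 74 lay above 0, against 50.1% of all genes. In 92 muscle, 69 collagen and cartilage, 54 epidermal, 50 leukocyte and 35 erythroid genes 0 were called, with medians of -0.13, -0.10, 0.10, 0.53 and 0.23. An unadjusted p below 0.05 was reached by 2 higher and 10 lower members of the collagen list. The leukocyte list had 40 of 50 differences above 0, and 5 higher and 1 lower at an unadjusted p below 0.05. It had 1 member called higher in knockouts at 34 hpf (4.09% of all genes) and 16 at 48 hpf (4.76% of all genes). Its summed level was 346 to 362 CPM in siblings and 381 to 545 CPM in knockouts at 34 hpf, and 338 to 370 CPM and 451 to 1264 CPM at 48 hpf, so that knockouts lay above siblings at both stages. Its member, the cytokine gene il1b, with a fitted difference of 6.63 ± 2.02 (adjusted p = 0.303), stood at 23.5, 0.288, 0.359 and 0.0936 CPM in the knockouts of 48 hpf, so its value rests on replicate 1, and without that library it was 2.03 (adjusted p = 0.794). Calls fell in 14 of the 47 lists, which share members, and the other 33 had medians between -0.68 and 0.53. Of 1763 genes on any list and tested, 14 were called, against 49 of all 24084 genes tested (0.203%). The lists were chosen with earlier results of these data known.

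Of the 49 calls, 23 held in all 16 omissions of a library, and all 49 kept their sign in every one. The most calls were lost without sibling 48 hpf replicate 3 or knockout 48 hpf replicate 3, with 25 each (highest adjusted p = 0.128 and 0.122), and without sibling 48 hpf replicate 2, with 24 (highest adjusted p = 0.124). Without sibling 34 hpf replicates 1 to 4 in turn 12, 15, 21 and 13 were lost (highest adjusted p = 0.109, 0.127, 0.111 and 0.114). Without knockout 34 hpf replicates 1 to 3 in turn 14, 10 and 18 were lost (highest adjusted p = 0.0868, 0.107 and 0.113), and without replicate 4 none of the 49. Without sibling 48 hpf replicates 1 and 4 the numbers were 17 and 9 (highest adjusted p = 0.145 and 0.0883). Without knockout 48 hpf replicates 1, 2 and 4 they were 5, 1 and 19 (highest adjusted p = 0.0944, 0.0748 and 0.102). The 1 call lost without knockout 48 hpf replicate 2 was that of LHX3, and the 5 lost without replicate 1 were those of LHX3, pbxip1a, purg, rx3 and sagb. Calls lost without only 3 or 4 of the libraries were those of pcbp3, galnt13, rbpms2a and scamp5b. Among the other settings, limma-voom lost 14 calls, those of gnb3a, tmx3a, tnfrsf9a, scamp5b, stxbp1b, ctss2.1, calb2b, purg, rlbp1a, sagb, ctsh, rx3, LHX3 and si:ch73-233f7.1. The robust prior lost those of ctss2.1 and ctsh, and the fit with no filter those of sema6d, rdh14a, rlbp1a and rx3. The test against a fold change of 1.5 left 10, gnb3a, tmx3a and the 8 genes called in all settings.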

How the data were processed

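Libraries were made with the VAHTS Universal V8 kit from 1 µg of TRIzol-extracted total RNA per sample, per the labels' protocols. The deposited table holds unnormalised counts for each gene symbol, and the submitters' processing notes name STAR 2.7.10b, featureCounts 2.0.6, Trim Galore 0.6.10 and the build GRCz11. Annotation, strand setting and multimapping rule: not given in the sources used here, so near-identical and overlapping genes are uncertain.

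Genes were filtered with filterByExpr, scaled by TMM and tested by glmQLFit and glmQLFTest of edgeR 4.0.16 (R 4.3.3), with all 16 libraries in one model of 4 groups and Benjamini-Hochberg adjustment over 24084 genes. Levels are CPM on TMM-scaled library sizes, and log2 values carry standard errors. The genes named were the 12 largest differences either way, the reversed effects, the 8 smallest p per growing or fading class and direction, each above an average log2 CPM of 1, up to 4 called members per list, and apolipoproteins. This rule named 39 of the 49 called genes; the other 10 and the uncalled genes other than hnf4 and apolipoprotein genes were chosen after their values were seen. The members and the 47 lists were chosen with earlier results of these data known. No promoter or protein sequences were used here.

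Alternatives were DESeq2 1.42.0, limma-voom 3.58.1, DESeq2 size factors, upper quartile scaling, a robust prior, no filter, a minimum CPM of 1 in 4 libraries, testing against 1.5-fold, the replicate number within a stage as a block, and each library left out. Deviations of same-numbered siblings and knockouts from their group means correlated at 0.155, 0.267, 0.279 and 0.208 at 34 hpf and 0.284, 0.174, 0.191 and 0.43 at 48 hpf. All lie above 0.1, and on that cut-off the repeat numbers were taken to pair the samples for the block. The labels do not say what a number marks. The same-numbered library was the closest match both ways only for replicate 3 at 34 hpf and replicates 1 and 4 at 48 hpf. These correlations therefore cannot show that the numbers pair the samples. On the third principal component (11.6% of the variance), however, both genotypes split by the same numbers. At 34 hpf replicates 1 and 2 lay on the positive side and 3 and 4 on the negative. At 48 hpf replicates 2 and 3 lay on the positive side and 1 and 4 on the negative. What this split marks was not tested, and the main model does not include it. With the block 35 of the 49 calls held. The fits were tested on simulated counts. Plots used matplotlib 3.10.9.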

Additional observations from a re-analysis of the deposited data

Results flagged for a closer look

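The 21 genes with a higher and the 28 with a lower effect at 48 hpf than at 34 hpf are listed because the test of the difference between the stages called them. Among the called genes, a single library lay far from the other 3 of its group in 13 of 196 groups of 4 examined, where chance gives about 5%. In the siblings of 34 hpf the flagged values were syt5b in replicate 4 (2.16 CPM), scamp5b in replicate 4 (0.197 CPM), prox1a in replicate 3 (37.7 CPM), cdh17 in replicate 3 (113 CPM) and plbd1 in replicate 2 (42.4 CPM). In the knockouts of 34 hpf they were gnb3a in replicate 2 (0.625 CPM) and pax10 in replicate 3 (3.33 CPM). In the siblings of 48 hpf they were prox1a in replicate 2 (100.6 CPM), LHX3 in replicate 4 (42.5 CPM), rab43 in replicate 3 (14.6 CPM) and pbxip1a in replicate 2 (46.7 CPM). In the knockouts of 48 hpf they were kdelr2a in replicate 1 (129 CPM, the others at 135.5 to 136.5 CPM) and fzd5 in replicate 3 (46.8 CPM, the others at 39.5 to 39.99 CPM).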

How the results depend on the processing

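All 49 called differences kept their sign in each of the 9 other settings and 16 omissions, and 8 kept their call in all of them (atoh7, bhlhe23, ccdc88aa, ddhd2, pygl, rhbg, slc17a5 and syt5b). DESeq2 called 80 higher and 97 lower genes, all 49 among them, with 103 growing and 61 fading effects. In limma-voom 18 were higher and 18 lower, 35 of them shared, with 18 growing effects. The test against 1.5-fold left 3 higher and 7 lower, with 6 growing, 4 fading and 0 reversed effects. Without a single library the higher calls ranged from 13 to 62, the lower from 10 to 51, growing effects from 12 to 53, fading from 6 to 47 and reversed from 3 to 13. The highest counts came without knockout 34 hpf replicate 4 (62 higher, 51 lower). Higher calls fell by over 1.5 times, to 13, without replicate 3 of the 34 hpf siblings, 48 hpf siblings or 48 hpf knockouts. Lower calls fell that far without sibling 34 hpf replicate 3 (18) and knockout 34 hpf replicate 3 (16). They also did so without sibling 48 hpf replicates 1, 2 and 3 (17, 10 and 11) and knockout 48 hpf replicates 3 and 4 (11 and 16). Growing effects fell that far without sibling 34 hpf replicate 3. Both growing and reversed effects did so without sibling 48 hpf replicates 1, 2 and 3 and knockout 48 hpf replicates 3 and 4. Fading effects numbered 7 without sibling 34 hpf replicate 3 or 4 and 6 without knockout 34 hpf replicate 3. Growing effects rose to 44 without knockout 48 hpf replicate 2. With the replicate block 24 genes were higher and 29 lower, and 35 of the 49 calls held; it changed no called gene other than the 14 named in the report. Upper quartile scaling gave 20 higher and 35 lower genes, and DESeq2's size factors 20 and 31. Omissions moved the uncalled hnf4a difference between -0.26 and 0.18, that of hnf4b between -0.54 and 0.34 (-0.069 with the replicate block), that of hnf4g between -0.43 and 0.25 and that of apoa4b.1 between -7.11 and 1.11. The uncalled slc2a2 difference went from -0.81 to 1.71 without knockout 34 hpf replicate 4, and no other gene followed through all these settings changed sign. The causes of these shifts were not tested. At 4 libraries a group the median standard error of a difference was 0.25, and a difference without a call was not shown to be absent. Where an omission is named as passing the threshold for an uncalled gene, that does not make a call.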

Other observations

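Leaving out knockout 34 hpf replicate 4, a choice made after the data were seen to look at the genes involved, added 64 calls to the 49, of which 41 were higher and 23 lower at 48 hpf. All but 1 of the 64 had the same sign with all 16 libraries. Among the added genes were several of the secretory pathway with higher differences: the coat protein genes copb2 (0.62 ± 0.13, adjusted p = 0.0471) and copg2 (0.51 ± 0.10, adjusted p = 0.0312), the translocon gene sec61a1l (0.79 ± 0.13, adjusted p = 0.0153), the vesicle fusion gene sec22ba (0.996 ± 0.21, adjusted p = 0.0446) and srpra, for a subunit of the signal recognition particle receptor (0.57 ± 0.09, adjusted p = 0.00945). With all 16 libraries their values were 0.62, 0.50, 0.58, 0.94 and 0.41, and none was called. Genes lower in knockouts at both stages whose effects became smaller were mttp (-3.40 to -2.22), the antiplasmin gene serpinf2b (-3.32 to -2.11) and the retinol dehydrogenase gene rdh5 (-2.91 to -1.26). The glucose transporter gene slc2a2 changed by 1.71 ± 0.33 (adjusted p = 0.0312) and was the 1 gene named here whose sign differed with all 16 libraries (-0.81).

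Genes of neuronal contacts were among those added with a lower difference. The cell adhesion genes dscaml1 (-1.02 ± 0.17, adjusted p = 0.0159) and dscama (-0.62 ± 0.12, adjusted p = 0.0385), the receptor phosphatase gene ptprdb (-0.92 ± 0.12, adjusted p = 0.00384), the protocadherin gene pcdh8 (-1.77 ± 0.33, adjusted p = 0.0240) and the endocytosis gene snap91 (-0.47 ± 0.10, adjusted p = 0.0444) were in this set. Their values with all 16 libraries were -0.89, -0.52, -0.73, -1.64 and -0.50. These genes were picked after their values were seen.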
